A study of Eucalyptus grandis
Pisolithus microcarpus and Eucalyptus grandis with 23 samples.

Results

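The 128 genes described here were switched between an on and an off state among the root libraries of Eucalyptus grandis, a plantation eucalypt. They were selected on their own expression values. Expression was measured as CPM, the total gene reads of a gene divided by all gene reads of its library and multiplied by 1000000. A gene was taken when at least 3 of the 23 libraries were under 0.1 CPM (off), at least 3 were at 10 CPM or more (on), and at least 1 of the 11 control libraries was on. Of 36376 listed genes, 16290 were at 10 CPM or more in at least 3 libraries, and 15858 of those were under 0.1 CPM in no library. A further 66 genes met both counts with no control library at 10 CPM and were not included. Because every expression value of these genes went into the choice, the levels below are descriptions without a test.

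Seedlings aged 1 month were transferred singly to Petri dishes and kept for 1 month with the ectomycorrhizal fungus Pisolithus microcarpus laid on the root, or alone. The 6 groups were roots with strain SI-12 at 650 ppm CO2, with strain SI-9 at 650 ppm, with SI-12 at 400 ppm and with SI-9 at 400 ppm (3 libraries each), and axenic control roots at 650 ppm (5 libraries) and at 400 ppm (6 libraries). All groups shared the medium, the dishes and the growth chamber regime. The labels call the libraries of a group biological replicates and do not say how many seedlings went into each.

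In an ectomycorrhiza the fungus wraps fine roots in a mantle and grows between their outer cells, where sugar is exchanged for mineral nutrients. The root transcriptome is known to be reprogrammed as this organ forms. The genome of Eucalyptus grandis is rich in tandem duplicates, and reads can be divided among near-identical copies. In bulk tissue, fewer cells of a type and less RNA per cell cannot be told apart. The deposited identifiers are not paired with gene names, so no function is given for any gene, and the labelled tissue could not be checked against marker genes. In this annotation the letters A to K of an identifier stand for the chromosomes and L for scaffolds not placed on one.

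Libraries held 4497662 to 30210474 gene reads, and 1 read corresponded to 0.0331 to 0.222 CPM. In SI-9 library 1 and SI-12 library 2 at 400 ppm and in control library 2 at 650 ppm an off call therefore required 0 reads, and elsewhere it allowed at most 1 to 3 reads. The on-off genes took 0.0836% to 0.155% of a library's gene reads. Libraries of a group were also compared over the genes outside the list, and 9 sets of libraries were joined where they differed by a coefficient of variation under 0.2 beyond counting noise. The 20 pairs of libraries inside sets differed by 0.0712 to 0.191, the 17 pairs between sets of a group by 0.204 to 0.325, and the 216 pairs from different groups by 0.219 to 0.411. SI-12 roots formed 1 set at each CO2 level and SI-9 roots 1 set at 400 ppm, whereas SI-9 library 3 at 650 ppm stood alone. Control roots formed a set of libraries 1 and 2 and one of libraries 3 to 5 at 650 ppm, and a set of libraries 1 to 3 and one of libraries 4 to 6 at 400 ppm. The 2 control sets at 650 ppm, which differed by 0.204 to 0.207, and SI-9 library 2 at 400 ppm, which differed from libraries 1 and 3 by 0.183 and 0.191, lie near the limit of 0.2. In the deposited library names, SI-9 roots and the control libraries 1 and 2 at 650 ppm and 1 to 3 at 400 ppm carry numbers from 1 to 12, and the other libraries numbers from 13 to 24. What these numbers stand for is not given in the sources used here.

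Of 2944 values of the 128 genes in 23 libraries, 949 (32.2%) were on, 733 (24.9%) were off and 1262 (42.9%) lay between. Of the values between, 517 were under 1 CPM and 745 at 1 CPM or more. No read at all was counted in 547 of the off values (74.6%). Among all genes at 10 CPM or more in at least 3 libraries, 0.404% of values were off. A gene of the list was on in a median of 7 libraries (3 to 19) and off in a median of 5 (3 to 18). Its median level while on was 10.7 to 188 CPM, with a median over genes of 16.5 CPM. Per gene length, the level while on had a median of 14.3 RPKM for the on-off genes and 18.6 RPKM for the other genes at 10 CPM or more in at least 3 libraries.

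**Figure D1:**
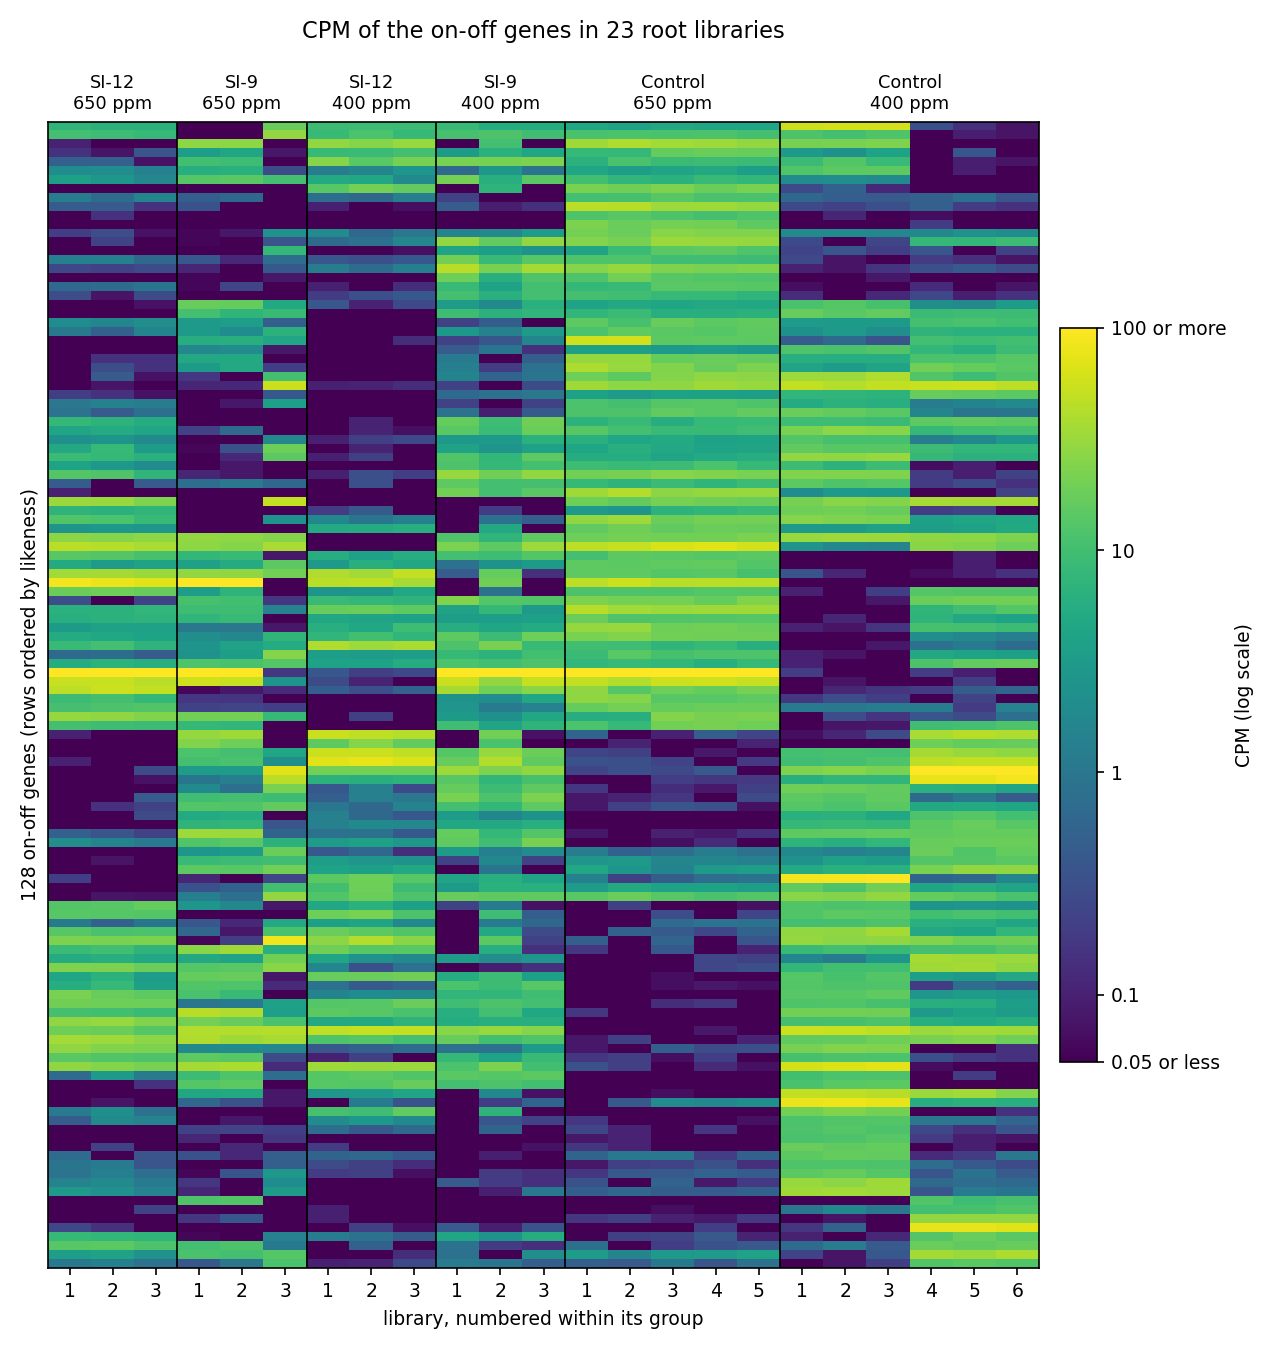
CPM of the 128 on-off genes (rows) in each of the 23 libraries (columns, by group), on a log colour scale from 0.05 CPM or less (dark) to 100 CPM or more (yellow). Control libraries 1 to 3 and 4 to 6 at 400 ppm look like separate groups, as does library 3 of the SI-9 roots at 650 ppm, while the 5 control libraries at 650 ppm hold 0 genes in opposite states.

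Opposite states were rare inside the sets of libraries, which had been joined for their likeness over the other genes. Of 1152 combinations of a gene and a set, 542 (47.0%) were uniform, with every library of the set on or every library off. SI-9 library 3 at 650 ppm, a set by itself, counts as uniform for each of its 30 on and 45 off genes. Only 5 of 1024 combinations with more than 1 library held an on and an off library together, all in SI-9 roots at 400 ppm. Among the 20 library pairs inside sets, 18 had 0 genes in opposite states. Between the sets of a group 0 to 22 genes were opposite per pair of libraries (17 pairs, median 15), and between groups 2 to 41 (216 pairs, median 21). Of the 17 pairs, 11 had any opposite gene, and the 2 control sets at 650 ppm had 0 between them. The 128 genes had 128 different patterns of on, between and off over the libraries. Patterns over sets were nearly as varied, with 120 different ones. Most genes were uniformly on in few sets, 34 genes in 1 set, 36 in 2 and 28 in 3, and 53 genes were uniformly off in 1 set.

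**Figure D2:**
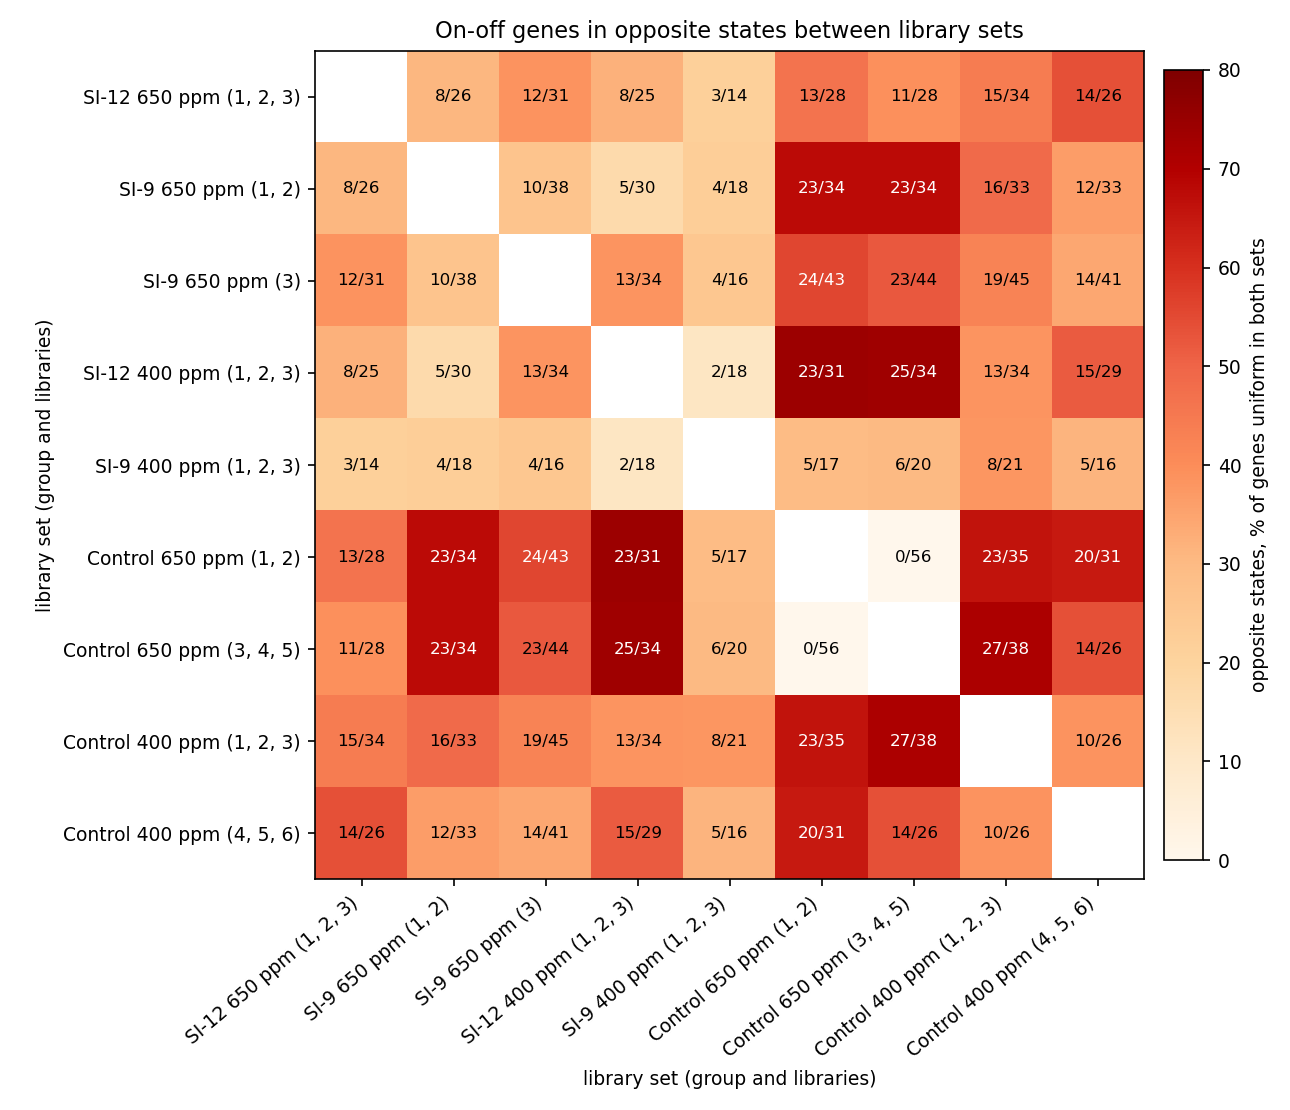
On-off genes in opposite states between each pair of the 9 library sets. Numbers give the genes in opposite states over the genes uniform in both sets, and the colour gives their percentage (0 to 80%). The sets of control roots at 650 ppm share 56 uniform genes with 0 opposite, whereas SI-12 roots at 400 ppm are opposite to control libraries 3 to 5 at 650 ppm in 25 of 34.

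In each of the 9 sets, 2 genes were uniformly on or uniformly off. Eucgr.K03028.1 had 18.95, 18.0 and 13.5 CPM in SI-12 roots and 41.8, 41.7 and 42.5 CPM in SI-9 roots at 650 ppm. At 400 ppm it had 48.5, 51.2 and 49.4 CPM in SI-12 roots and 26.0, 30.5 and 25.1 CPM in SI-9 roots. Control roots at 650 ppm had 0, 0, 0.0335, 0.0831 and 0 CPM, against 56.7, 52.2, 47.4, 32.1, 35.0 and 33.8 CPM in control roots at 400 ppm. The gene was off in the 5 control libraries at 650 ppm and on in the other 18. Reads that matched no other gene made up 14.0% of its reads, so its level is uncertain. With unique reads alone 18 of its 23 libraries were no longer on. No library turned from on to off or off to on, which was hardly possible at this share.

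Eucgr.C02944.1, whose reads were nearly all unique, was off in SI-12 and SI-9 roots at 400 ppm and in part of the SI-9 roots at 650 ppm. It had 31.6, 31.1 and 23.2 CPM in SI-12 roots at 650 ppm and 0, 0.0406 and 49.2 CPM in SI-9 roots at 650 ppm. At 400 ppm all 6 mycorrhizal libraries had 0 reads, whereas control roots had 18.6, 16.1, 21.1, 19.5 and 18.0 CPM at 650 ppm and 20.9 to 37.1 CPM (median 30.9) at 400 ppm. Against a floor of 3 reads over the off group, its mean level at 400 ppm was lower than in control roots by at least 346-fold with SI-12 and at least 289-fold with SI-9. The 3 SI-9 libraries at 650 ppm held it in opposite states, with library 3 on.

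**Figure D3:**
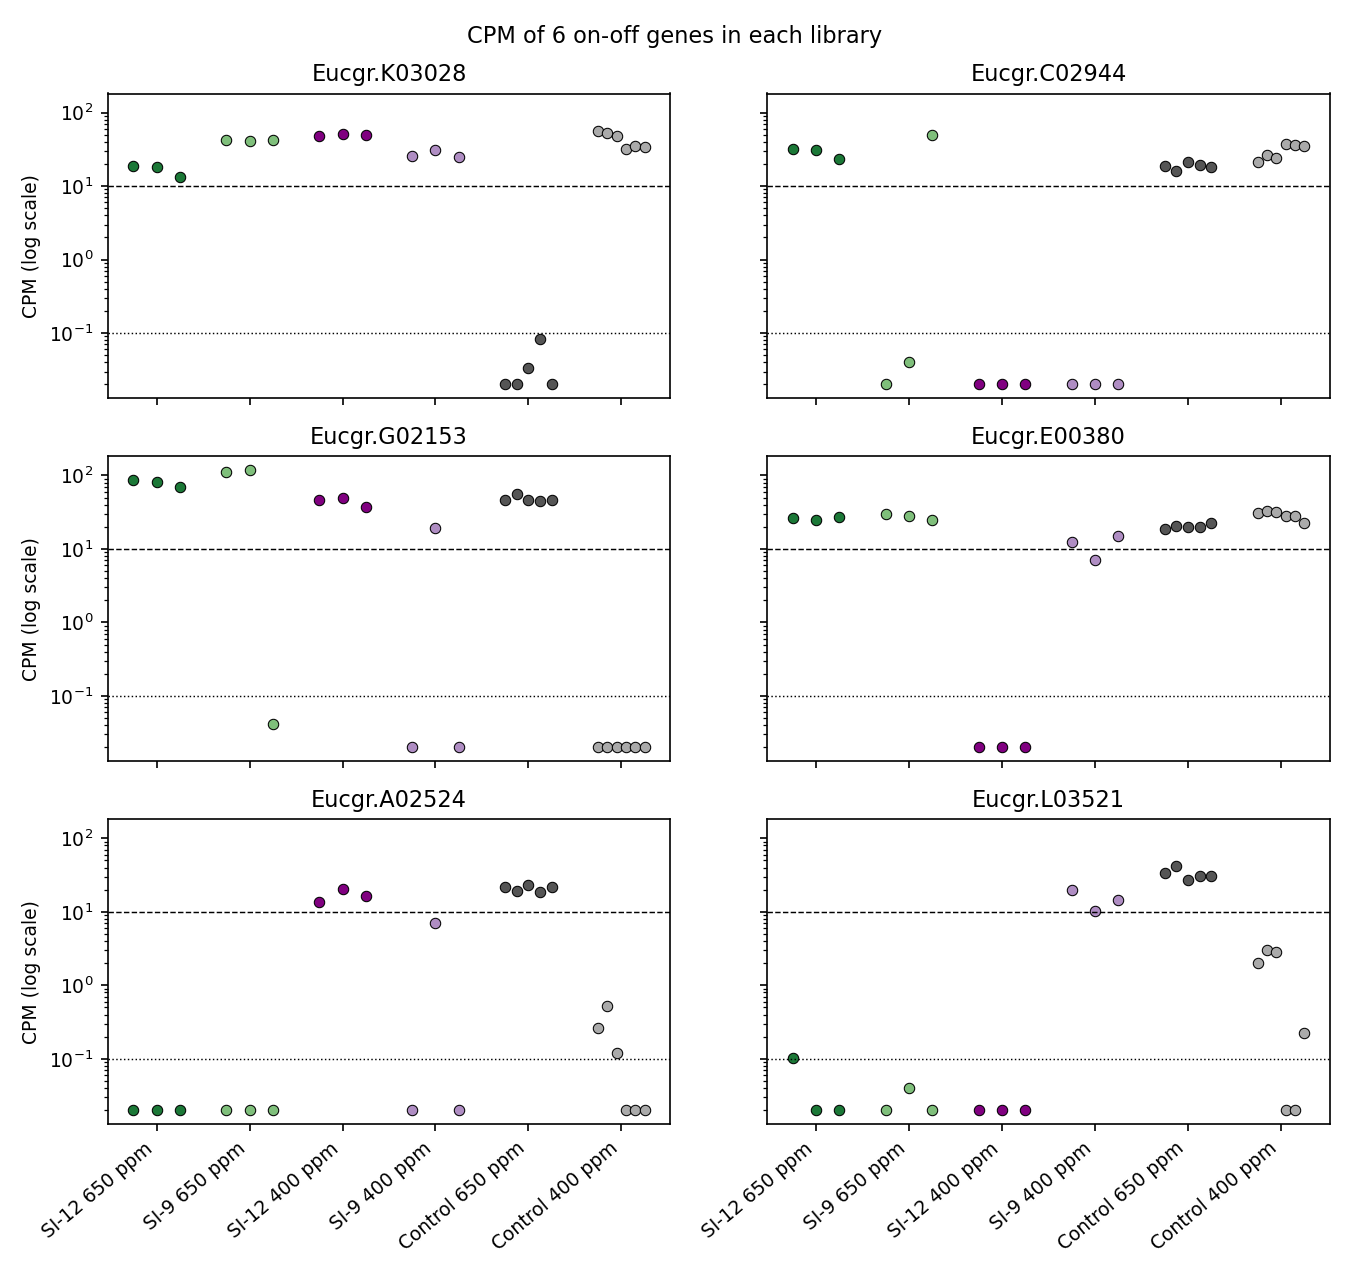
CPM on a log scale of 6 on-off genes in each library, by group, with values under 0.02 CPM drawn at 0.02. The dashed line marks 10 CPM (on) and the dotted line 0.1 CPM (off). Most points lie above the upper or below the lower line, and SI-9 library 2 at 400 ppm is at 19.3 CPM for Eucgr.G02153.1 and 6.96 CPM for Eucgr.A02524.1 while libraries 1 and 3 are at 0.

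Control roots at 400 ppm were divided within their own group. Of the 128 genes, 28 (21.9%) were on in 1 control library at 400 ppm and off in another. The genes were chosen for holding both states, this group has the most libraries, and the share over all genes was not computed. Libraries 1 to 3 and libraries 4 to 6 were both uniform for 26 genes, of which 12 were on in both, 4 off in both and 10 opposite. Their CPM ranges did not overlap for 106 genes (82.8%), 46 higher and 60 lower in libraries 4 to 6, against 57.8% of the 16290 genes. A pair with 1 library from each set had 15 to 22 genes in opposite states, near the median of 21 between groups.

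The 10 opposite genes were examined after their values were seen. Off in libraries 4 to 6 and on in libraries 1 to 3 were Eucgr.F01433.1, Eucgr.I00117.1, Eucgr.L01007.1, Eucgr.L01352.1, Eucgr.L02796.1 and Eucgr.L02944.1. Eucgr.L01007.1 had the highest level of these, with 0.0635, 0 and 0 CPM in libraries 4 to 6 and 61.2, 66.0 and 72.8 CPM in libraries 1 to 3. It was also on in all 3 SI-12 libraries at either CO2 level and in all 3 SI-9 libraries at 400 ppm. In SI-9 roots at 650 ppm it had 36.3, 38.8 and 0.123 CPM. The 5 control libraries at 650 ppm were off or at 0.329 CPM or less. Eucgr.L02796.1 had 0 reads in libraries 4 to 6 and 11.3, 14.4 and 14.6 CPM in libraries 1 to 3. SI-12 roots at 400 ppm had 13.9, 13.6 and 16.9 CPM of it, and each control library at 650 ppm had 0 reads.

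The reverse was seen for Eucgr.E01368.1, Eucgr.L01433.1, Eucgr.L02858.1 and Eucgr.L03047.1, on in control libraries 4 to 6 and off in libraries 1 to 3. Eucgr.E01368.1 had 28.8, 29.1 and 28.9 CPM in libraries 4 to 6 and at most 0.0754 CPM in libraries 1 to 3. No other library reached 10 CPM of it. Eucgr.L03047.1 had 18.5, 16.4 and 17.0 CPM in libraries 4 to 6 and 0 in libraries 1 to 3. It was also on in SI-12 roots at 400 ppm, with 15.4, 25.5 and 16.1 CPM. SI-9 roots had 0, 11.25 and 0 CPM of it at 400 ppm and 23.4, 18.7 and 0 CPM at 650 ppm. Of the 10 opposite genes, 7 had an identifier with the letter L, against 21 of all 128 genes (16.4%). Of these 21 genes, 61.9% had under 90% unique reads.

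Some genes were on in a single set and in no library outside it. Control libraries 1 to 3 at 400 ppm had 15 such genes, control libraries 4 to 6 at 400 ppm had 8 and control libraries 3 to 5 at 650 ppm had 1, while 0 were found for the other sets. A set of fewer than 3 libraries cannot have any under the rule, and a mycorrhizal set cannot either, since the rule requires an on control library. Eucgr.H00329.1 was at 81.0, 83.0 and 75.6 CPM in control libraries 1 to 3 at 400 ppm and at 6.60 CPM or less in every other library. Eucgr.E04179.1 was at 74.7, 75.7 and 69.3 CPM in control libraries 4 to 6 at 400 ppm and at 0.566 CPM or less elsewhere. Both were picked after their values were seen, for the highest level in their set.

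Off in every library of a single set and in no other library were 5 genes for SI-12 roots at 650 ppm, 4 for SI-12 roots at 400 ppm, 5 for control libraries 1 to 3 and 2 for control libraries 4 to 6 at 400 ppm. For SI-12 roots at 400 ppm these were Eucgr.E00380.1, Eucgr.G00274.1, Eucgr.G02270.1 and Eucgr.L00601.1, each with 0 reads in the 3 libraries. For SI-12 roots at 650 ppm they included Eucgr.H02157.1, with 0, 0.0744 and 0.0733 CPM there, which was on in 18 of the other 20 libraries.

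Control roots at 650 ppm held 0 genes in opposite states, as did SI-12 roots at either CO2 level. The 2 control sets at 650 ppm were both uniform for 56 genes, 43 on and 13 off. Between control roots at 650 ppm and at 400 ppm the CPM ranges of 80 genes did not overlap (39 higher and 41 lower at 650 ppm), which is 62.5% of the list against 33.9% of the 16290 genes. The same values chose the genes, so nothing is read from the excess here or in the comparisons below. Within the libraries numbered 1 to 12 the ranges of 118 genes did not overlap (background 75.6%), and within those numbered 13 to 24 those of 111 (background 66.7%). The ranges then span fewer libraries.

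A full switch, with 1 group wholly on and the other wholly off, was found between the control groups for 6 genes. These were also the only such genes among the 16290 (0.0368%), because any gene with this switch meets the rule. The backgrounds given for full switches below also include the list's own genes, so nothing is read from the difference. At 650 ppm 4 of them were on, Eucgr.G02153.1, Eucgr.G00462.1, Eucgr.I00503.1 and Eucgr.C02705.1, and Eucgr.K03028.1 and Eucgr.B02918.1 were off. Eucgr.G02153.1 averaged 47.8 ± 4.42 CPM (SD, n = 5) in control roots at 650 ppm and had 0 reads in all 6 control libraries at 400 ppm, at least 2100-fold higher at 650 ppm against 3 reads over the group at 400 ppm. Eucgr.B02918.1 averaged 0.0134 ± 0.0300 CPM (SD, n = 5) in control roots at 650 ppm, from 2 reads in 1 library, and 38.7 ± 9.97 CPM (SD, n = 6) in control roots at 400 ppm. Eucgr.G00462.1 had 15.0, 14.7, 15.9, 16.3 and 13.2 CPM in control roots at 650 ppm, against 0.0943 CPM in control library 5 and 0 in the other 5 control libraries at 400 ppm. In mycorrhizal roots it was mostly between the thresholds, at 0.889 to 5.83 CPM in 11 libraries and at 14.8 CPM in SI-9 library 3 at 650 ppm.

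The 2 highest levels of the list were those of Eucgr.C04162.1 and Eucgr.G01382.1. Eucgr.C04162.1 had 211, 200 and 188 CPM in SI-12 roots at 650 ppm, against 0.390, 0.212 and 0.270 CPM in SI-12 roots at 400 ppm. In SI-9 roots it had 172, 174 and 0.165 CPM at 650 ppm, against 256, 139 and 244 CPM at 400 ppm. Control roots had 178 to 253 CPM at 650 ppm and at most 0.199 CPM at 400 ppm. The gene was thus at 139 CPM or more in 13 libraries and under 0.4 CPM in the other 10. Eucgr.G01382.1 reached 113, 133 and 128 CPM in control libraries 4 to 6 at 400 ppm, against 23.2, 25.0 and 21.4 CPM in libraries 1 to 3. It was at 0.416 CPM or less in control roots at 650 ppm and at 0.293 CPM or less in SI-12 roots at 650 ppm.

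SI-9 roots at 400 ppm were apart from control roots at 400 ppm in 55 genes (21 higher, 34 lower), 43.0% of the list against 26.5% of the 16290 genes. SI-12 roots at 400 ppm were apart from the same controls in 67 genes (21 higher, 46 lower), 52.3% against 36.0%. These comparisons share their control libraries. The rule requires an on control library, so genes on with a fungus and in no control library are left out. The split between higher and lower genes is therefore tilted towards lower. Against the control libraries numbered alike, the ranges of 91 genes did not overlap for SI-9 roots (background 48.4%) and those of 101 genes for SI-12 roots (background 55.4%).

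Control roots at 400 ppm were on in all 6 libraries for 12 genes and off in all 6 for 4, which limits how many full switches they can show. In SI-9 roots 1 gene switched fully against controls (background 0.0123%), Eucgr.C02944.1, which was off. SI-12 roots had 3 (background 0.0921%, 15 of the 16290 genes), with Eucgr.G02153.1 on and Eucgr.C02944.1 and Eucgr.E00380.1 off. Eucgr.G02153.1 had 45.7, 48.7 and 36.8 CPM in SI-12 roots, against 0 reads in each control library at 400 ppm, at least 1920-fold higher against 3 reads over the controls. Eucgr.E00380.1 had 0 reads in the 3 SI-12 libraries and 29.0 ± 3.70 CPM (SD, n = 6) in control roots at 400 ppm. It was on in 19 libraries, the most of any gene in the list, and at 7.15 CPM in SI-9 library 2 at 400 ppm.

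At 650 ppm SI-9 roots were apart from control roots in 83 genes (35 higher, 48 lower), 64.8% of the list against 43.4% of the 16290 genes. SI-12 roots were apart from the same control roots in 94 genes (37 higher, 57 lower), 73.4% against 51.4%. The requirement of an on control library tilts these directions towards lower as well. Within the numbers 1 to 12 the count for SI-9 roots was 86 (background 60.0%), and within 13 to 24 that for SI-12 roots was 99 (background 65.9%).

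Full switches at 650 ppm numbered 9 in SI-9 roots (background 0.0552%) and 9 in SI-12 roots (background 0.0614%). Eucgr.K03028.1 and Eucgr.J02620.1 were on in the roots with either strain and off in control roots at 650 ppm. Eucgr.J02620.1 averaged 27.5 ± 3.36 CPM in SI-12 roots and 16.4 ± 4.72 CPM in SI-9 roots (SD, n = 3 each), with 1 read over the 5 control libraries at 650 ppm. Eucgr.A02524.1, Eucgr.I00503.1 and Eucgr.K01799.1 were off with either strain and on in control roots at 650 ppm. Eucgr.A02524.1 had 0 reads in all 6 mycorrhizal libraries at 650 ppm and 20.7 ± 1.85 CPM (SD, n = 5) in control roots. Its level was lower at least 322-fold with SI-12 and at least 460-fold with SI-9.

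Fully switched with SI-9 and not with SI-12 were Eucgr.L03521.1, Eucgr.E02977.1, Eucgr.E03505.1 and Eucgr.K01726.1, all off. Fully switched with SI-12 and not with SI-9 were Eucgr.L00712.1, which was on, and Eucgr.G02055.1, Eucgr.H02157.1 and Eucgr.L02469.1, which were off. Eucgr.L03521.1 missed the SI-12 list narrowly, with 0.102, 0 and 0 CPM in SI-12 roots. It had 0, 0.0406 and 0 CPM in SI-9 roots, against 33.5, 42.1, 26.8, 30.3 and 30.9 CPM in control roots at 650 ppm. Eucgr.L02469.1 was at 0.0510, 0.0744 and 0 CPM in SI-12 roots and 0.112, 0.122 and 53.7 CPM in SI-9 roots, against 27.7 to 34.1 CPM in control roots at 650 ppm. Unique reads made up 61.6% of the reads of Eucgr.L02469.1, and with these alone 4 libraries were no longer in the same state. In Eucgr.G02055.1 the sets of control roots at 650 ppm were both on but unequal, with 57.7 and 59.2 CPM in libraries 1 and 2 and 14.5, 15.0 and 14.7 CPM in libraries 3 to 5.

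Between CO2 levels, SI-9 roots at 650 ppm were apart from SI-9 roots at 400 ppm in 49 genes (17 higher, 32 lower), 38.3% of the list and close to the 40.4% of all 16290 genes. SI-9 library 3 at 650 ppm moved with this count. Without it, 66.9% of the genes that still met the rule were apart. The share over all genes was not recomputed, so the 40.4% is no background for this value. The full switch of 1 gene (background 0.00614%) was that of Eucgr.L03521.1, off at 650 ppm and at 19.6, 10.3 and 14.4 CPM at 400 ppm.

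SI-12 roots at 650 ppm were apart from SI-12 roots at 400 ppm in 99 genes (51 higher, 48 lower), 77.3% of the list against 57.7% of the 16290 genes. A full switch was found in 8 genes (background 0.117%), 4 in each direction, and the 4 that were on at 650 ppm had 0 reads at 400 ppm. Eucgr.L00601.1 had 45.9, 42.5 and 38.0 CPM at 650 ppm and 0 reads at 400 ppm, at least 485-fold higher. Eucgr.E00380.1 and Eucgr.G00274.1 were at least 303-fold and at least 136-fold higher, and Eucgr.C02944.1 at least 329-fold. Off at 650 ppm were Eucgr.I00076.1, Eucgr.L03047.1, Eucgr.A02524.1 and Eucgr.H02157.1. Eucgr.I00076.1 had 0 reads in SI-12 roots at 650 ppm and, with a mean of 52.5 ± 3.77 CPM (SD, n = 3), was on at 400 ppm. The level at 650 ppm was at least 817-fold lower. Unique reads made up 66.2% of the reads of Eucgr.I00076.1, and with these alone 7 libraries were no longer in the same state.

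Strains were compared at the same CO2 level, where strain and the range of library numbers cannot be told apart. At 650 ppm 63 genes were apart between SI-12 and SI-9 roots (33 higher and 30 lower with SI-12), 49.2% of the list against 39.1% of the 16290 genes. Without SI-9 library 3 at 650 ppm, 82.3% of the genes that still met the rule were apart. Here too the share over all genes was not recomputed, so the 39.1% is no background for this value. At 400 ppm 95 genes were apart (39 higher, 56 lower), 74.2% against 53.2%. Full switches numbered 2 at 650 ppm (background 0.0123%) and 2 at 400 ppm (background 0.0123%). Eucgr.L01984.1 had 14.0, 13.4 and 12.9 CPM in SI-12 roots at 650 ppm and 0 reads in SI-9 roots at 650 ppm. The opposite held for Eucgr.E02674.1, with 0 reads in SI-12 roots and 14.6, 13.9 and 20.03 CPM in SI-9 roots at 650 ppm. Of the reads of Eucgr.L01984.1 67.4% were unique, and with unique reads alone 8 libraries were no longer in the same state. Off in SI-12 roots and on in SI-9 roots at 400 ppm were Eucgr.L00601.1 and Eucgr.L03521.1, the first at 22.2, 15.2 and 33.1 CPM in the SI-9 libraries.

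SI-9 library 2 at 400 ppm lay between its own group and SI-12 roots at 400 ppm. Over genes outside the list it differed from SI-9 libraries 1 and 3 by a coefficient of variation of 0.183 and 0.191, while those 2 libraries differed by 0.0953, and it differed from the SI-12 libraries by 0.219 to 0.231. It had 2 to 4 genes in opposite states with the SI-12 libraries at 400 ppm, where the smallest count among pairs from different groups was 2, and 5 and 4 with SI-9 libraries 1 and 3. In SI-9 library 2 76 genes lay between the thresholds, the most of any library, which lowers its counts of opposite genes. On in SI-12 roots were 5 genes that were off in SI-9 libraries 1 and 3. In library 2 they stood at 0.362 to 0.593 of the SI-12 level (median 0.414). Eucgr.H04559.1 had 54.1, 48.9 and 43.4 CPM in SI-12 roots, 20.1 CPM in SI-9 library 2, and 0 and 0.0721 CPM in SI-9 libraries 1 and 3.

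Conversely, 5 genes were off in SI-12 roots and on in SI-9 libraries 1 and 3, and library 2 stood at 0.387 to 0.705 of the level of libraries 1 and 3 (median 0.548). Of the 104 genes whose SI-12 levels did not overlap those of SI-9 libraries 1 and 3, library 2 lay strictly between in 80 (76.9%), against 6883 of 10550 other genes (65.2%). How this library came to its levels was not tested.

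**Figure D4:**
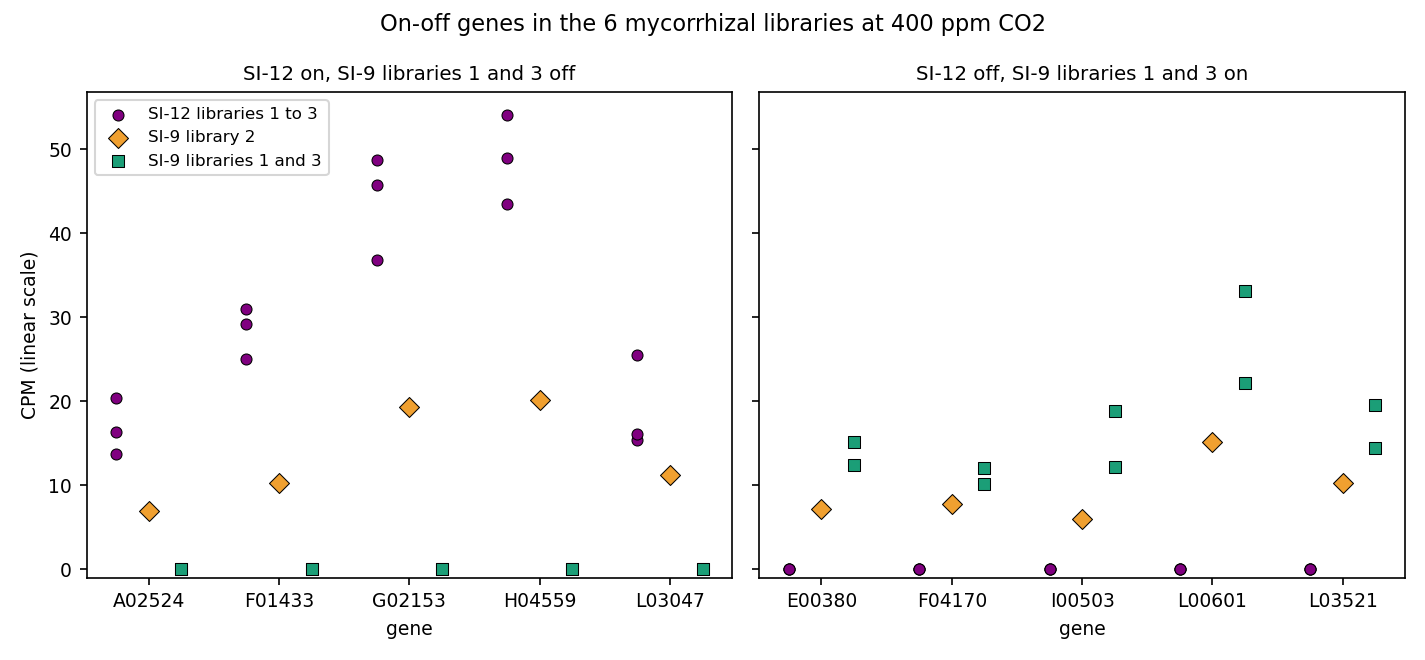
CPM on a linear scale of the 10 genes in opposite states between SI-12 libraries (circles) and SI-9 libraries 1 and 3 (squares) at 400 ppm, with SI-9 library 2 (diamonds). In each of the 10 genes library 2 lies between the other 2 sets of points, from 6.01 CPM in Eucgr.I00503.1 to 20.1 CPM in Eucgr.H04559.1.

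SI-9 library 3 at 650 ppm was in the opposite state to both other libraries of its group in 10 genes. Off in library 3 and on in libraries 1 and 2 were 7, and 3 were on in library 3 and off in the others. Of the 7, 5 were also off in SI-9 libraries 1 and 3 at 400 ppm and 2 in all SI-12 libraries at 650 ppm. Eucgr.G02153.1 had 0.0411 CPM in library 3, against 111 and 118 CPM in libraries 1 and 2. Eucgr.J01742.1 had 0 reads in library 3 and 12.5 and 12.8 CPM in libraries 1 and 2. It was off in 18 libraries, the most of any gene in the list, and was otherwise at 9.52 to 12.9 CPM in control libraries 4 to 6 at 400 ppm. Eucgr.L02944.1, in turn, had 28.7 CPM in library 3 and 0 reads in libraries 1 and 2. With 45 genes off, library 3 was second to SI-12 library 1 at 400 ppm, with 46. It had 12 and 15 opposite genes with the other libraries of its group.

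SI-12 and SI-9 roots at 400 ppm were opposite in 2 of 18 genes uniform in both, a count that leaves out every gene on which the 3 SI-9 libraries differ. With SI-9 library 2 apart, SI-12 roots at 400 ppm were opposite to SI-9 libraries 1 and 3 in 10 of 26 genes and to library 2 in 2 of 33. SI-9 libraries 1 and 2 at 650 ppm and SI-12 roots at 400 ppm were opposite in 5 of 30. Opposite states were most frequent between SI-12 roots at 400 ppm and control roots at 650 ppm, with 23 of 31 genes for control libraries 1 and 2 (74.2%) and 25 of 34 for libraries 3 to 5 (73.5%). Of these 25, 19 were off in SI-12 roots and on in the controls. SI-9 libraries 1 and 2 at 650 ppm were opposite to either control set at 650 ppm in 23 of 34 genes. SI-12 roots at 650 ppm were opposite to the same control sets in 13 of 28 and 11 of 28 genes.

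Likeness between genes was measured by Pearson's r of log2(CPM + 0.1) over the 23 libraries, which share depth within a library and near-identical sets. The genes most like Eucgr.K03028.1 were Eucgr.L02995.1 (r = 0.9504), Eucgr.G00738.1 (r = 0.938) and Eucgr.J02620.1 (r = 0.931). Eucgr.L02995.1 was in the same state in 21 libraries, with 35.2, 32.8 and 26.7 CPM in SI-12 roots at 650 ppm and at most 0.211 CPM in control roots at 650 ppm. Of its reads 64.3% were unique, and with unique reads alone 7 of its libraries changed state. The genes most like Eucgr.C02944.1 were Eucgr.E02976.1 (r = 0.860), Eucgr.C02857.1 (r = 0.816) and Eucgr.E02798.1 (r = 0.792). Eucgr.E02976.1 had 0 reads in SI-12 roots at 400 ppm and 10.7 to 13.8 CPM in control roots at 650 ppm.

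Mirror-image patterns were found for Eucgr.K03028.1 and 2 genes whose identifiers carry the same letter. Eucgr.K01799.1 was in the opposite state in 22 libraries and Eucgr.K01726.1 in 21. Eucgr.K01799.1 was at 22.6, 17.5, 20.3, 19.6 and 15.3 CPM in control roots at 650 ppm and at 0.191 CPM or less in every other library. Eucgr.K01726.1 was at 10.6 to 14.0 CPM in control roots at 650 ppm and at 0.149 CPM or less elsewhere. Unique reads made up 48.4% and 50.2% of the reads of these 2 genes, so their levels share the uncertainty of Eucgr.K03028.1.

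Some genes with identifiers near each other switched alike. On the lettered chromosomes, 16 pairs of the list lay within 20 identifier numbers. Eucgr.F04170.1 and Eucgr.F04172.1 had r = 0.983, Eucgr.C04162.1 and Eucgr.C04170.1 r = 0.973 with 16 libraries in the same state and 0 opposite, and Eucgr.I00468.1 and Eucgr.I00469.1 r = 0.920. Eucgr.C04170.1 had 52.6, 52.3 and 45.6 CPM in SI-12 roots at 650 ppm, against 0.292, 0.106 and 0 CPM in SI-12 roots at 400 ppm. Others went apart. Eucgr.G02143.1 and Eucgr.G02153.1 were opposite in 9 libraries (r = -0.61), and Eucgr.E01286.1 and Eucgr.E01287.1, next to each other in the list, were opposite in 3. In control libraries 1 to 3 at 400 ppm Eucgr.E01286.1 had 0, 0 and 0.0404 CPM, where Eucgr.E01287.1 had 56.7, 61.1 and 59.3 CPM. Of the 256 direct neighbours of the 128 genes in the listed order, 81 were at 10 CPM or more in at least 3 libraries, 8 of them on the on-off list themselves. Of the 81, 67 were never off (82.7%), against 97.3% of the 16290 genes. The rule requires off libraries of the 8 genes on the list, so they could not count as never off and lower the 82.7%. The share without them was not computed.

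The identifier letter, the gene length and the share of unique reads were not used by the rule. The letter L was carried by 21 of the 128 genes (16.4%), against 3.57% of the 16290 genes and 6.76% of all listed genes. C, E and G were carried by 17, 19 and 16 genes (13.3%, 14.8% and 12.5%), against 8.75%, 7.46% and 7.69% of the 16290. Unique reads were under 90% for 49 of the 128 genes (38.3%), against 15.2% of the 16162 other genes at 10 CPM or more in at least 3 libraries. Among genes with the letter L the shares were close, 61.9% of 21 on-off genes and 61.1% of 561 others. Among the 107 on-off genes with the letters A to K the share was 33.6%, still above the 15.2% of other genes of all letters. The share over the other genes with the letters A to K alone was not computed. The median gene length was 1372 bases for the on-off genes and 1688 bases for the others. With unique reads in place of total reads, 109 of the 128 genes still met the rule and 4 had no library at 10 CPM or more. For 0 genes a library turned from on to off or from off to on, but such a turn was hardly possible. Unique reads are a part of the total reads and made up at least 4.965% of each gene's reads. A turn needs a fall from 10 CPM or more to under 0.1 CPM, or the reverse.

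**Figure D5:**
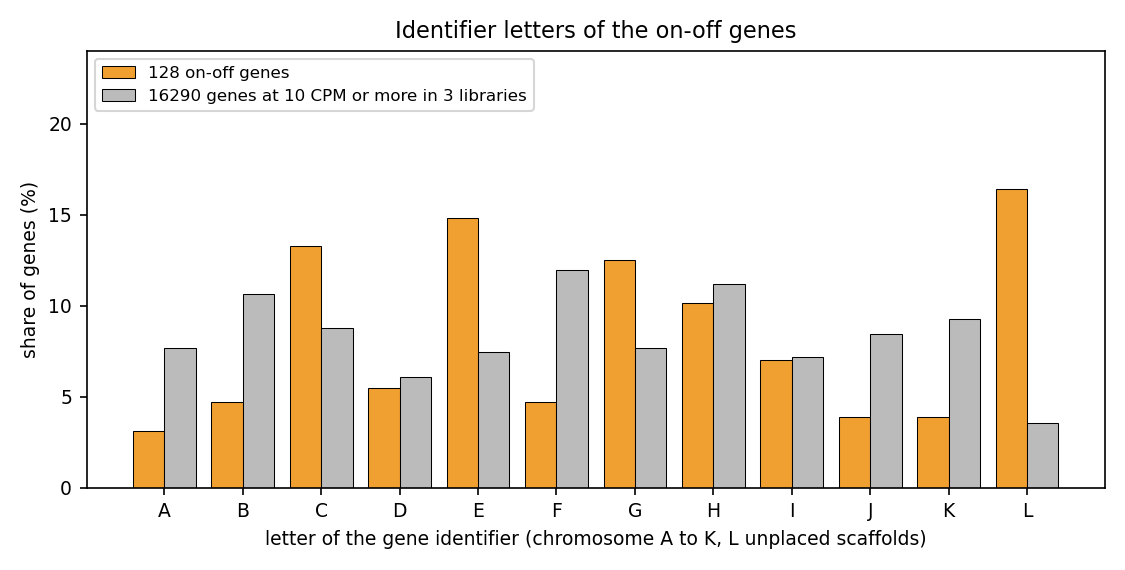
Share of genes (%) by identifier letter for the 128 on-off genes and, beside each, for the 16290 genes at 10 CPM or more in at least 3 libraries. The bars for L differ most, at 16.4% and 3.57%.

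Near the thresholds the choice rested on small differences. Eucgr.E01273.1 and Eucgr.L02858.1 were taken with a third-lowest value of 0.0993 CPM, 3 reads in control library 1 at 400 ppm. Eucgr.E00677.1 and Eucgr.B01582.1 were left out with 0.102 CPM. At the upper threshold Eucgr.F04170.1 and Eucgr.H03064.1 were taken with a third-highest value of 10.2 CPM, and Eucgr.H00310.1 and Eucgr.L03135.1 were left out with 9.96 and 9.91 CPM.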

How the data were processed

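Roots of 6 groups were sequenced in 23 libraries. Per the file headers, the deposited tables give for each gene its length, counts of unique and of total gene reads, and an RPKM made by the authors (reads scaled to gene length and to the gene reads of the library), which was used here for the level per length alone. No aligner, genome build or strand setting was found in the labels or headers (not given in the sources used here). Unique reads were 95.7% to 96.5% of a library's gene reads.

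CPM were total gene reads over their column sum. States and counts were computed with Python 3.11.15 (pandas 2.3.3, numpy 2.4.6), and figures were drawn with matplotlib 3.10.9. Library sets were joined by single linkage within a group at a coefficient of variation under 0.2 beyond counting noise, over genes outside the list with a mean count of 100 or more after median scaling. These steps were tested on simulated data. Folds against 0 reads are bounds against 3 reads over the group and cover counting error only. The genes, comparisons and rule for named genes were chosen with earlier results of these data known. The rule names genes with complete patterns over sets, the 2 highest full switches per comparison and direction, the 2 highest levels, the 2 most opposed pairs, the 3 nearest in likeness and those nearest the thresholds. Other genes were named after their values were seen. Groups of genes by description were not formed, because 0 identifiers matched the reference table. Alternatives were TMM factors (edgeR 4.0.16) and size factors (DESeq2 1.42.0) in R 4.3.3, unique reads, other thresholds, and each library left out.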

Additional observations from a re-analysis of the deposited data

Results flagged for a closer look

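In 7 of the named genes, 1 library of a group was flagged, by a gap over the group's range above Dixon's critical value. Chance flags about 1 in 20 groups of normal values, a rate that does not hold for counts near 0. In control roots at 650 ppm the ratio was 0.892 for Eucgr.G02153.1, where library 2 had 55.7 CPM and the others 45.4 to 46.5 CPM. It was 1 for Eucgr.B02918.1, Eucgr.J02620.1, Eucgr.G00738.1 and Eucgr.H03064.1 in control roots at 650 ppm, and 1 for Eucgr.G00462.1 and Eucgr.K01799.1 in control roots at 400 ppm. In these 6 cases a single library had reads of the gene, at 0.0416 to 0.191 CPM, and the others had 0. The ratio is then 1 by construction and shows no outlying level.

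Genes with ranges apart in both of a pair of comparisons, but in opposite directions, were counted, and the difference was not tested. For 650 against 400 ppm, SI-12 and control roots went opposite ways in 26 of 128 genes (20.3%) and the same way in 36 (28.1%). Among the 16290 genes these shares were 7.38% and 14.1%. SI-9 and control roots went opposite ways in 22 (17.2%) and the same way in 10 (7.81%), against 4.56% and 9.96%. SI-12 and SI-9 roots went opposite ways in 19 (14.8%) and the same way in 21 (16.4%), against 10.7% and 12.9%. Differences from controls at 650 and 400 ppm went opposite ways for 22 genes with SI-12 (17.2%) and the same way for 27 (21.1%). Among all 16290 genes these were 7.75% and 12.5%. With SI-9 they went opposite ways for 21 (16.4%) and the same way for 12 (9.38%), against 4.05% and 7.79%. The same values chose the genes, so nothing is read from these shares.

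For the named genes among them, the log2 ratio of mean CPM + 0.1 in the first comparison minus that in the second was computed; such differences depend on the added 0.1. For 650 over 400 ppm in SI-12 roots minus control roots it was 8.56 in Eucgr.E00380.1, 8.57 in Eucgr.J02620.1, 8.11 in Eucgr.L02995.1, 6.59 in Eucgr.E02798.1, -13.76 in Eucgr.A02524.1 and -4.68 in Eucgr.E01273.1. For SI-9 roots minus control roots it was 9.07 in Eucgr.K03028.1, 1.74 in Eucgr.E00380.1, 7.78 in Eucgr.J02620.1, 7.64 in Eucgr.E02674.1, 8.20 in Eucgr.L02995.1 and -11.53 in Eucgr.L03521.1. For SI-12 minus SI-9 roots it was -2.18 in Eucgr.K03028.1, -10.71 in Eucgr.E02674.1 and 11.11 in Eucgr.F04170.1.

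For SI-12 over control roots at 650 ppm minus that at 400 ppm it was 8.85 in Eucgr.C02944.1, -7.15 in Eucgr.G00462.1, 8.56 in Eucgr.E00380.1, -13.76 in Eucgr.A02524.1 and 8.11 in Eucgr.L02995.1. For SI-9 over control roots it was 9.07 in Eucgr.K03028.1, 10.72 in Eucgr.B02918.1, 1.74 in Eucgr.E00380.1, -11.53 in Eucgr.L03521.1, 7.64 in Eucgr.E02674.1 and -11.05 in Eucgr.C04162.1.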

How the results depend on the processing

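Of 564 values recomputed for 17 results, 534 stayed within 1.5 times the count of genes or within the exact 95% binomial interval of the percentage as reported. This interval treats the genes as independent draws, which they are not. Each list with a library left out lies wholly within the 128 genes. Staying within the limits is therefore partly built in and is no test. The rule gave 132 genes with TMM factors or DESeq2 size factors, all 128 among them, and 120 with unique reads, 109 shared. It gave 286 genes at a high threshold of 5 CPM, 48 at 20 CPM, 208 with at least 2 libraries of each state, 45 with at least 5, 194 without the condition on controls, and 79 with at least 90% unique reads. At 5 CPM, genes apart between SI-12 roots at 650 and 400 ppm were 66.4% and between SI-12 and SI-9 roots at 400 ppm 63.6%; at 20 CPM they were 87.5% between SI-12 roots at 650 and 400 ppm and 39.6% between strains at 650 ppm, with 40.7% of states uniform. With at least 2 libraries, 34.1% were apart between SI-9 and control roots at 400 ppm and 40.6% of states were uniform. With at least 5, 71.1% were apart between control roots at 650 and 400 ppm, 24.4% were opposite within SI-9 roots at 650 ppm and 8.89% at 400 ppm, and 61.0% of states were uniform.

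Leaving out 1 library in turn gave 102 to 127 genes and 46.3% to 50.9% uniform states, the highest without control library 1 at 400 ppm. Opposite genes ranged from 0% to 4.90% within SI-9 roots at 400 ppm (0% without library 2) and from 0% to 16.7% at 650 ppm (0% without library 3). Without SI-9 library 3 at 650 ppm the genes apart were highest for SI-9 over control roots at 650 ppm (63.7% to 82.3%), SI-9 roots at 650 over 400 ppm (36.2% to 66.9%) and SI-12 over SI-9 roots at 650 ppm (47.9% to 82.3%). With both SI-9 libraries left out, chosen after seeing the data, these were 82.3%, 71.0% and 82.3%. Opposite genes were then 0% within SI-9 roots at 650 ppm and 0% at 400 ppm. Shares over all genes were not recomputed for these alternatives. Sets at a limit of 0.15, also chosen afterwards, numbered 10, with SI-9 library 2 at 400 ppm alone, and added Eucgr.G02153.1 to the genes uniform in every set. Counts within ranges of library numbers were chosen after seeing the data too. No paired analysis was possible because the results come from no test. The causes of these shifts were not tested. Off calls are limited by depth, since 1 read was up to 0.222 CPM.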
